A study of Homo sapiens with 8 samples.

Results

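Small nucleolar RNAs (snoRNAs) were described in Caco-2 cells with and without Siglec-XII. The members were the entries of the expression table whose symbol began with SNORD or SNORA followed by a digit, which gave 465 of the 63816 entries. They comprised 310 box C/D entries (SNORD), of which 11 were U3 (SNORD3) and 1 was U8 (SNORD118), and 155 H/ACA entries (SNORA). Entries with the same values in all 8 samples were counted once, because reads from identical copies cannot be assigned to one of them, and 35 entries fell into 12 such sets.

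Caco-2 is an established human colorectal adenocarcinoma line without Siglec-XII of its own, and the study asked what this receptor changes when it is put in. The 4 control samples carried the empty vector pcDNA3.1, and the 4 Siglec-XII samples carried the same vector with SIGLEC12. Each group came from a stable transfection of its own, so a difference between the 2 populations and an effect of Siglec-XII cannot be told apart, and p-values measure only the spread between samples, which may be technical. The 4 samples of a group could not be reconciled with the 3 cultures per condition in the description of the series, and the methods of the study speak of 3 technical libraries from each sample. Total RNA was sequenced with 100 bp paired reads after, per the labels, an rRNA-depleting library kit (the methods of the study name an mRNA kit), which matters here because mature snoRNAs have no poly(A) tail. Several marker genes of enterocytes were at or near 0 in all 8 samples, so the cells are called Caco-2 by their label.

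SnoRNAs are stable noncoding RNAs of the nucleolus that pair with other RNAs and bring a fixed set of proteins to the site. Box C/D snoRNAs carry fibrillarin (FBL), which methylates the 2′ hydroxyl of the paired nucleotide, and H/ACA snoRNAs carry dyskerin (DKC1), which turns uridine into pseudouridine. A few, among them U3, U8, U14 and U17, also act in the cleavage or folding of the rRNA precursor. Most human snoRNAs are cut out of the introns of host genes, whereas U3, U8 and U13 are transcribed from promoters of their own.

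The sequences below show the boxes that define each class and the copies that the measurements had to separate. They are from the GENCODE transcripts on GRCh37, 5′ to 3′. Capitals mark box C (TGATGA) and the last downstream box D (CTGA) in C/D snoRNAs, and the ACA within the last 8 bases in H/ACA snoRNAs. U3 is given to 5 bases past box D, and U8, which lies in an untranslated region of TMEM107, only around box C.
SNORD3A (U3), chr17:19091329-19091545, plus strand: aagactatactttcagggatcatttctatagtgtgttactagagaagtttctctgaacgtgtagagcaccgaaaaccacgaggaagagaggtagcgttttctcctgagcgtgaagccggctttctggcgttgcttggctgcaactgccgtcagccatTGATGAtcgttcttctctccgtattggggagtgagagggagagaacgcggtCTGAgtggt
SNORD118 (U8), chr17:8076834-8076863, minus strand: cagattagaacaTGATGAttggagatgcat
SNORD104, chr17:62223443-62223512, plus strand: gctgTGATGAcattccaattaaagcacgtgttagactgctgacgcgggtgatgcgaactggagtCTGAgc
SNORD14A (U14), chr11:17096201-17096291, minus strand: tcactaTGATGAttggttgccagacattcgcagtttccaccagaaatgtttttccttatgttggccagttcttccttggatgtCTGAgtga
SNORD14E (U14), chr11:122928785-122928869, minus strand: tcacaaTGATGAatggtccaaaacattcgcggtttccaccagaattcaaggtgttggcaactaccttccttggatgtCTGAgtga
SNORD12B, chr20:47896856-47896946, plus strand: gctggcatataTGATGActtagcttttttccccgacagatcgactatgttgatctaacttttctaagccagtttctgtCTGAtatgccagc
SNORA33, chr6:133138358-133138487, plus strand: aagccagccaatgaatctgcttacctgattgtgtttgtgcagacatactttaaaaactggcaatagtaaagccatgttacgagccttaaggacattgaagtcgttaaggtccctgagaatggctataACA
SNORA71A, chr20:37055952-37056085, minus strand: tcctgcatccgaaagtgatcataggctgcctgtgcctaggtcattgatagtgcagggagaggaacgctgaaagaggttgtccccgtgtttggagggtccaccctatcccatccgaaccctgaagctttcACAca
SNORA71C, chr20:37058313-37058446, minus strand: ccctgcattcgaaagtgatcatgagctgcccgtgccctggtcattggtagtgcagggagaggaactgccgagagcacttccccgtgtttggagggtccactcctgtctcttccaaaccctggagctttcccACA

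These boxes were searched on the RNA strand in every member sequence that the annotation held. TGATGA with a later CTGA was found in 182 of 235 annotated C/D sequences outside U3 and U8 (77.4%) and in 1 of 126 H/ACA sequences (0.794%). ACA within the last 8 bases was found in 112 of 126 H/ACA sequences (88.9%) and in 14 of 235 C/D sequences (5.96%). The names and the sequences thus separated the classes in most, not all, entries. The U14 copies SNORD14A and SNORD14E were identical at 72 of 93 aligned positions (77.4%), and SNORA71A and SNORA71C, 2 snoRNAs of the host gene SNHG17, at 113 of 136 (83.1%). SNORD116-3 and SNORD116-9, and likewise SNORA15B-1 and SNORA15B-2, were identical over their whole length and had the same value in every sample.

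Most snoRNA entries were at or near 0 in these libraries. Of the 465 entries, 278 (59.8%) were listed at 0 in all 8 samples. These were 6 of 11 U3 entries, 199 of 298 other C/D entries and 73 of 155 H/ACA entries. The rest formed 164 distinct sets, and only 26 of these were above 0 in every sample. Each empty vector library held 39 to 41 distinct C/D snoRNAs (U3 and U8 aside) and 33 to 40 H/ACA snoRNAs above 0, and each Siglec-XII library held 34 to 43 and 37 to 42. Levels were compared on log2(TPM + 1), where TPM is a share of the library's transcripts, corrected for transcript length and scaled to a total of 1e+06. A test was made where an entry reached 1 TPM in at least 4 samples, which 75 entries in 72 distinct sets did: SNORD3A, SNORD118, 35 other C/D snoRNAs and 35 H/ACA snoRNAs. Of the 72, 47 were at 0 in at least 1 sample.

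Of the 72 tested snoRNAs, 2 had an adjusted p under 0.05 (limma, Benjamini-Hochberg over all 15590 entries tested), and these were U3 and U8, both lower with Siglec-XII (U8 passed the filter only through the libraries in which it was high). In the same fit 0.648% of all tested entries passed in either direction and 0.308% passed as lower. None of the other 35 C/D and none of the 35 H/ACA snoRNAs passed in limma. At an unadjusted p under 0.05 there were 2 of 35 in each class (5.71%), against 16.5% of all entries tested. The median SD within groups was 1.36 for C/D and 1.12 for H/ACA snoRNAs, against 0.14 for all entries. The lower share is therefore not read as less change. No other tool was run on these values.

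U3, the snoRNA that pairs with the precursor of 18S rRNA and is needed for its first cleavages, was measured through SNORD3A. Its log2(TPM + 1) level was 5.73, 5.42, 5.17 and 4.76 in empty vector replicates 1 to 4 and 3.17, 3.71, 2.87 and 1.72 in Siglec-XII replicates 1 to 4. The groups did not overlap, and the lowest empty vector library stood above the highest Siglec-XII library. SNORD3A fell by 2.40 on the log2 scale (SE 0.38, 95% interval -3.25 to -1.55, limma adjusted p = 0.0270), from 5.27 ± 0.41 to 2.87 ± 0.84 (SD, n = 4). The call was lost, at an adjusted p of 0.0508 to 0.0898, when empty vector replicate 1, 2 or 3 or Siglec-XII replicate 1 or 3 was left out, with the fold change between -2.24 and -2.50. It was also lost without the filter on low values (adjusted p = 0.128) and without the mean-variance trend (0.0696).

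The SNORD3A entry is annotated at 699 bases, chr17:19091329-19092027, and begins with the U3 sequence shown above. Its TPM value is therefore set for a transcript longer than that sequence. Where the reads lay within the 699 bases is not known from TPM. The U3 level given here is thus that of the entry, not of mature U3 alone. The other U3 entries added little. SNORD3B-2 lay between 0 and 0.56 on the log2 scale in the 8 samples, SNORD3B-1 was above 0.1 in 1 library of each group, and 1 SNORD3E entry reached 0.88 in empty vector replicate 3 and 0.94 in Siglec-XII replicate 1. Both SNORD3D entries, SNORD3C, SNORD3G, SNORD3H and SNORD3J were listed at 0 throughout. Summed over its entries, U3 stood at 5.29 ± 0.39 in the control libraries and at 2.94 ± 0.84 in the Siglec-XII libraries (SD, n = 4). The difference was -2.34, and the exact permutation test gave a two-sided p of 0.0286, below which 4 samples a group cannot go.

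U8 (SNORD118), which acts in the maturation of 28S and 5.8S rRNA, was at 0 in every library of one group. Its log2(TPM + 1) level was 4.34, 3.36, 3.92 and 4.01 in empty vector replicates 1 to 4, and it was listed at 0 in all 4 Siglec-XII libraries. Because a value listed at 0 gives no lower bound without read counts, no fold change is stated. The limma adjusted p was 1.08e-05, and the exact permutation test again gave its smallest two-sided p, 0.0286. SNORD118 passed the filter only through the 4 empty vector libraries, so it had to differ once it was tested and these p-values are no independent support. Without any one of those libraries it was not tested.

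The empty vector values of U8 were 19.3, 9.27, 14.2 and 15.2 TPM. At 135 bases, 1 base longer than the 134-base U8 entry, the lowest TPM value shared by at least 2 short RNAs was 1.94 to 2.68 in the 8 libraries, so the empty vector values stood above that mark and the Siglec-XII values below it. At 134 bases such a value could be found in 6 libraries and was higher in some of them: it was 2.02, 5.10 and 2.45 TPM in empty vector replicates 1, 3 and 4, where U8 was 9.56, 2.78 and 6.19 times it, and 5.45, 1.97 and 2.28 TPM in Siglec-XII replicates 1 to 3. The U8 gene, chr17:8076772-8076905 on the minus strand, lies within an exon of TMEM107 on the same strand, so reads from either can be shared. On the log2 scale TMEM107 itself was 1.56 ± 0.28 in control and 1.57 ± 0.22 in Siglec-XII libraries (SD, n = 4, limma adjusted p = 0.976).

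The third snoRNA with its own promoter, U13 (SNORD13), which acts in 18S maturation, did not reach the filter. Its log2(TPM + 1) level was 3.14, 2.59, 3.52 and 0 in empty vector replicates 1 to 4, and it was listed at 0 in all 4 Siglec-XII libraries. The groups overlapped at 0 because empty vector replicate 4 was also at 0. In the fit without a filter its limma adjusted p was 0.370. Of the 7 symbols listed for own promoters, only SNORD3A and SNORD118 were thus tested. The list was chosen with results of these data known and SNORD118 entered through its high group, so no direction is read for the list.

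Copies of U3 and U8 that the table names only by RNA family, and which were not members, gave another reading. Of 53 U3-family entries, 7 were above 0, and their summed TPM was 3.30, 0, 1.85 and 6.19 in empty vector replicates 1 to 4 and 0, 2.47, 2.52 and 0.964 in Siglec-XII replicates 1 to 4. Of 27 U8-family entries, 3 were above 0, with a summed TPM of 1.74, 0, 0 and 4.55 in the empty vector libraries and 5.45, 0, 3.94 and 0 in the Siglec-XII libraries. U8-family signal was thus above 0 in 2 Siglec-XII libraries in which SNORD118 was listed at 0. It was low there: the lowest TPM shared by at least 2 short RNAs of 134 bases was 5.45 in Siglec-XII replicate 1 and 2.28 in replicate 3. Whether these entries are working copies of U8 was not tested.

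The snoRNAs of rRNA cleavage that are made from introns were measured beside them. SNORD14E, the U14 copy within an intron of HSPA8, was 5.55, 4.81, 4.88 and 4.43 with the empty vector and 5.55, 5.15, 4.63 and 4.34 with Siglec-XII, and the 95% interval of the difference ran from -0.65 to 0.65. SNORD14A, the U14 copy within an intron of RPS13, was 5.15, 5.37, 5.13 and 5.51 with the empty vector and 5.81, 5.14, 5.52 and 0 with Siglec-XII. It was level in 7 libraries and listed at 0 in Siglec-XII replicate 4. Its fold change went from -1.17 (limma adjusted p = 0.637) to 0.20 (0.619) without that library. SNORD14E was 4.34 in the same library.

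SNORA73B, a copy of U17 (also named E1) within an intron of RCC1, ranged from 2.04 to 3.40 with the empty vector and from 2.37 to 3.54 with Siglec-XII (difference 0.40, 95% interval -0.40 to 1.19, limma adjusted p = 0.611). SNORA73A was above 0 in 2 empty vector libraries and 1 Siglec-XII library. SNORD14B and SNORD14D were each above 0 in 1 empty vector library only, and SNORD14C and SNORD22 were listed at 0 throughout. Of the 15 symbols on the list of rRNA cleavage, 5 were tested, and the only ones with an adjusted p under 0.05 (0.648% of all entries) were U3 and U8, the entries already described. The 3 tested members made from introns had none.

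**Figure D1:**
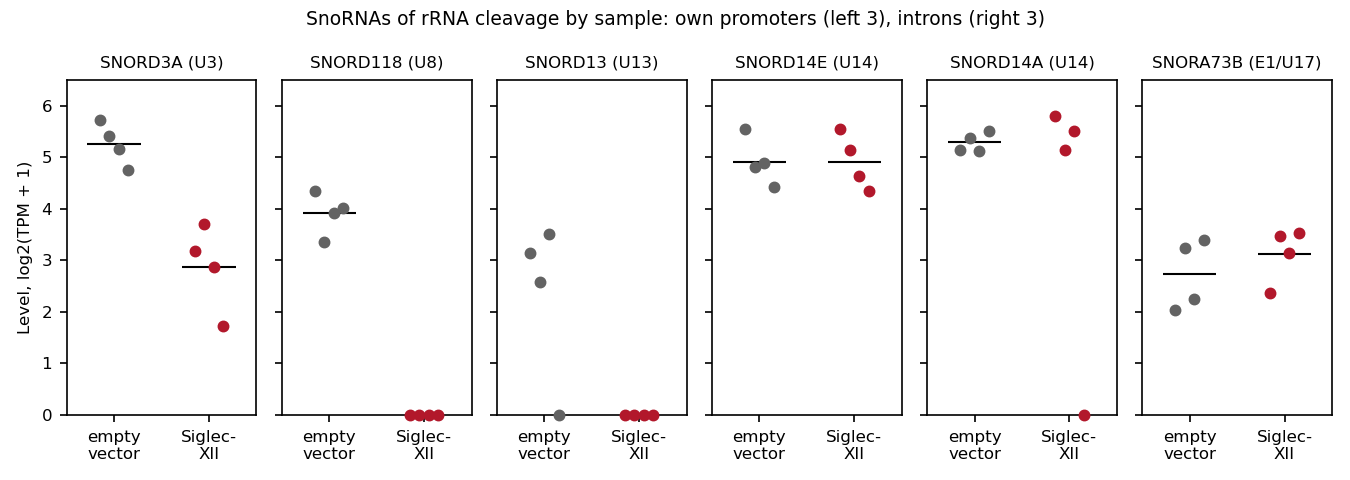
Levels of 6 snoRNAs from the list of rRNA cleavage on log2(TPM + 1), 1 point per library, with the group mean as a line where no library of the group is at 0. SNORD3A is 4.76 to 5.73 with the empty vector and 1.72 to 3.71 with Siglec-XII, SNORD118 and SNORD13 are at 0 in all 4 Siglec-XII libraries, and SNORD14E spans 4.43 to 5.55 and 4.34 to 5.55.

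Ranked by the level of single entries, the C/D snoRNAs other than U3 and U8 were led by SNORD104 and SNORD17, both guides of 28S rRNA methylation. SNORD104, within an intron of SNHG25, was 6.69, 6.68, 7.62 and 6.42 with the empty vector and 7.39, 6.23, 6.35 and 6.76 with Siglec-XII. SNORD17, within an intron of SNX5, was 6.37, 6.37, 6.68 and 6.36 with the empty vector and 6.59, 6.07, 6.44 and 6.49 with Siglec-XII. The groups overlapped for both. SNORD17 was the most tightly measured of the C/D snoRNAs, with a difference of -0.05 (95% interval -0.30 to 0.21), so a change of 1 log2 unit lay outside its interval. The difference of SNORD104 was -0.17 (95% interval -0.85 to 0.50).

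The next levels belonged to SNORD108 (mean 5.64), an orphan C/D snoRNA of the imprinted SNHG14 locus, to the identical copies SNORD62A and SNORD62B (5.64), and to SNORD14E (4.92). SNORD108 ranged from 4.10 to 6.23 with the empty vector and from 5.59 to 6.23 with Siglec-XII (difference 0.58, limma adjusted p = 0.475). SNORD62A ranged from 4.52 to 5.86 and from 5.45 to 6.29 (difference 0.51, limma adjusted p = 0.407). In this order SNORD104 and SNORD17 differed by less than the range of either, as did SNORD108 and SNORD62A.

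Of the H/ACA snoRNAs, which guide pseudouridylation, SNORA33 (mean 5.19), SNORA65 (4.68), SNORA55 (4.45), SNORA71C (4.32) and SNORA26 (3.91) were highest. SNORA55, within an exon of a PABPC4 transcript, was 4.24, 4.69, 4.55 and 4.34 with the empty vector and 4.49, 4.20, 4.68 and 4.39 with Siglec-XII. Its difference of -0.01 had the narrowest interval of the H/ACA class, from -0.29 to 0.27. SNORA33, within an intron of RPS12, was 5.46, 5.91, 4.82 and 5.59 with the empty vector and 4.42, 4.48, 5.91 and 4.94 with Siglec-XII (difference -0.51, 95% interval -1.25 to 0.24). SNORA65, within an intron of RPL12, differed by 0.24 (95% interval -0.31 to 0.79). The ranges of these 5 overlapped those of their neighbours in the order and overlapped between the groups.

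**Figure D2:**
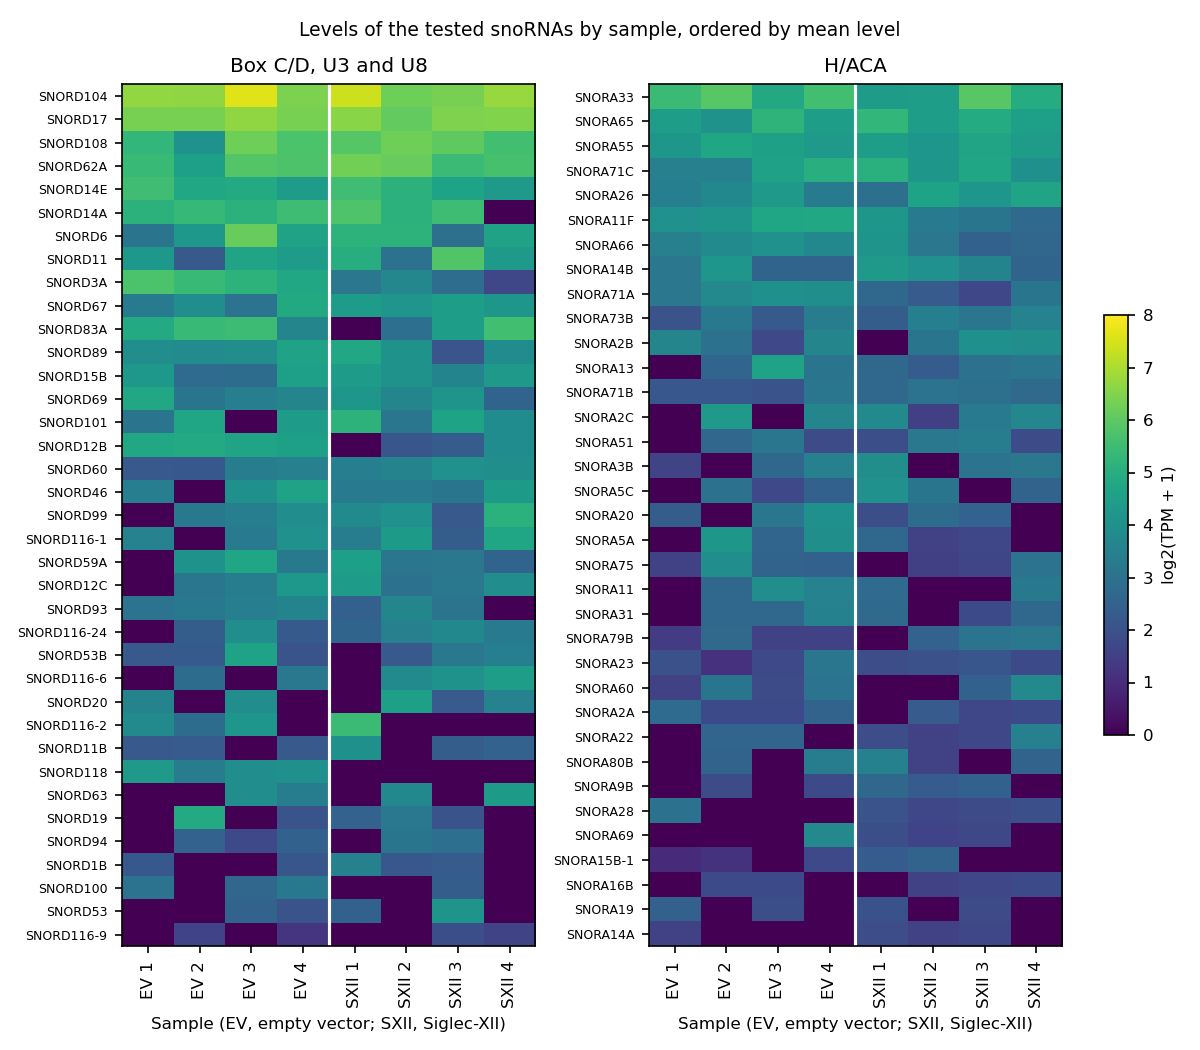
Levels of the 72 tested snoRNAs in each library (colour, log2(TPM + 1) from 0 to 8), C/D snoRNAs with U3 and U8 on the left and H/ACA snoRNAs on the right, each ordered by mean level. SNORD104 and SNORD17 are bright in all 8 libraries, and dark cells at 0 fill most rows from the middle down in both groups.

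As classes, the snoRNAs took a small share of the transcripts. Counted once each, the C/D snoRNAs other than U3 and U8 were 0.0631, 0.0617, 0.0927 and 0.0704% of TPM in empty vector replicates 1 to 4 and 0.0934, 0.0683, 0.0671 and 0.0704% in Siglec-XII replicates 1 to 4. The H/ACA snoRNAs were 0.0229, 0.0345, 0.0327 and 0.0373% and 0.0315, 0.0251, 0.0327 and 0.0306%. The means were 0.0720% ± 0.0143 against 0.0748% ± 0.0125 for C/D and 0.0318% ± 0.00627 against 0.0300% ± 0.00335 for H/ACA (SD, n = 4), and in both classes the difference was smaller than either SD. Without empty vector replicate 1 the H/ACA difference was -0.00486 percentage points, larger than the SD of the Siglec-XII libraries.

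Over the 35 tested C/D snoRNAs 22 fold changes were above 0 and 13 below, with a median of 0.35 on the log2 scale. Over the 35 H/ACA snoRNAs 20 were above and 15 below, with a median of 0.24. Of all 15590 entries tested, 10620 were above 0 and 4970 below, with a median of 0.07. A majority above 0 was thus not particular to the snoRNAs. Both medians depended on single libraries: the C/D median was 0.21, 0.09 and 0.24 without empty vector replicate 1, 2 or 3, and the H/ACA median was 0.00, 0.08 and 0.15 without empty vector replicate 1, 2 or 3 and 0.08 without Siglec-XII replicate 1. The median differed with the zeros: over the 24 of the 70 that were above 0 in every library the median was 0.12, and over the 46 with a 0 it was 0.36. Groups that did not overlap were seen for 1 of 35 C/D and 1 of 35 H/ACA snoRNAs, SNORD12B and SNORA71A, against 10.8% of all entries tested. The wider spread of the snoRNAs within groups makes such separation harder to see.

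SNORD12B, a guide of 28S rRNA methylation within an exon of a ZFAS1 transcript, was 4.80, 4.88, 4.66 and 4.54 with the empty vector and 0, 2.15, 2.34 and 3.90 with Siglec-XII. Every empty vector library was above every Siglec-XII library, but the Siglec-XII libraries were themselves widely spread. The difference of -2.62 (SE 0.65) had a limma adjusted p of 0.109, and without Siglec-XII replicate 4 it was -3.22 with an adjusted p of 0.0420. ZFAS1 itself went from 8.97 ± 0.07 to 8.67 ± 0.04 (SD, n = 4) and fell by 0.30 on the log2 scale (limma adjusted p = 0.0200). SNORD12C, within an intron of the same gene, had a difference of 0.93 (SE 0.79, limma adjusted p = 0.595).

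SNORA71A, within an exon of an SNHG17 transcript, was 3.18, 3.77, 4.03 and 3.97 with the empty vector and 2.69, 2.31, 1.71 and 3.10 with Siglec-XII. The groups were adjacent, with 3.18 the lowest of one and 3.10 the highest of the other. The difference was -1.28 (SE 0.29, limma adjusted p = 0.0981). Its near copy SNORA71C was 3.47, 3.47, 4.58 and 5.04 with the empty vector and 5.08, 4.23, 4.71 and 4.02 with Siglec-XII (difference 0.37, limma adjusted p = 0.665). SNORA71B, also in SNHG17, differed by 0.47 (limma adjusted p = 0.340), and SNHG17 by -0.05 (limma adjusted p = 0.606). How reads were divided between these copies was not tested.

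SNORA11F was 4.05, 4.14, 4.72 and 4.81 with the empty vector and 4.25, 3.28, 3.11 and 2.72 with Siglec-XII. Siglec-XII replicate 1 lay within the empty vector range, and the other 3 lay below it. The difference was -1.09 (SE 0.31, limma adjusted p = 0.147), and without that library it was -1.39 with an adjusted p of 0.0429. SNORD60, chosen after its values were seen because it was the only other snoRNA with an unadjusted p under 0.05, had a difference of 0.93 (SE 0.31, limma adjusted p = 0.198).

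Most of the other extreme fold changes belonged to snoRNAs that were listed at 0 in at least 1 library. In the C/D class the lowest after SNORD12B were SNORD100 (-1.64), SNORD83A (-1.61), SNORD116-2 (-1.34) and SNORD14A (-1.17), and the highest were SNORD116-6 (1.60), SNORD99 (1.17), SNORD101 (1.16), SNORD116-24 (1.14) and SNORD116-1 (1.001). SNORD83A, within an intron of RPL3, shows the pattern: it was 4.89, 5.38, 5.49 and 3.65 with the empty vector and 0, 2.92, 4.45 and 5.59 with Siglec-XII. In the H/ACA class the lowest after SNORA71A were SNORA5A (-1.21), SNORA11F, SNORA75 (-1.06) and SNORA11 (-1.03), and the highest were SNORA28 (1.14), SNORA2C (1.09), SNORA9B (0.98), SNORA14A (0.89) and SNORA22 (0.86). SNORA28, within an intron of EIF5, was 2.99, 0, 0 and 0 with the empty vector and 2.04, 1.70, 1.87 and 1.95 with Siglec-XII. Its limma adjusted p was 0.380. Without empty vector replicate 1 it was 0.00190, but SNORA28 was then at 0 in every empty vector library and passed the filter only through the Siglec-XII libraries, so that value had to be low and is no support for a difference. Apart from SNORA71A, only SNORA11F among these was above 0 in every library.

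**Figure D3:**
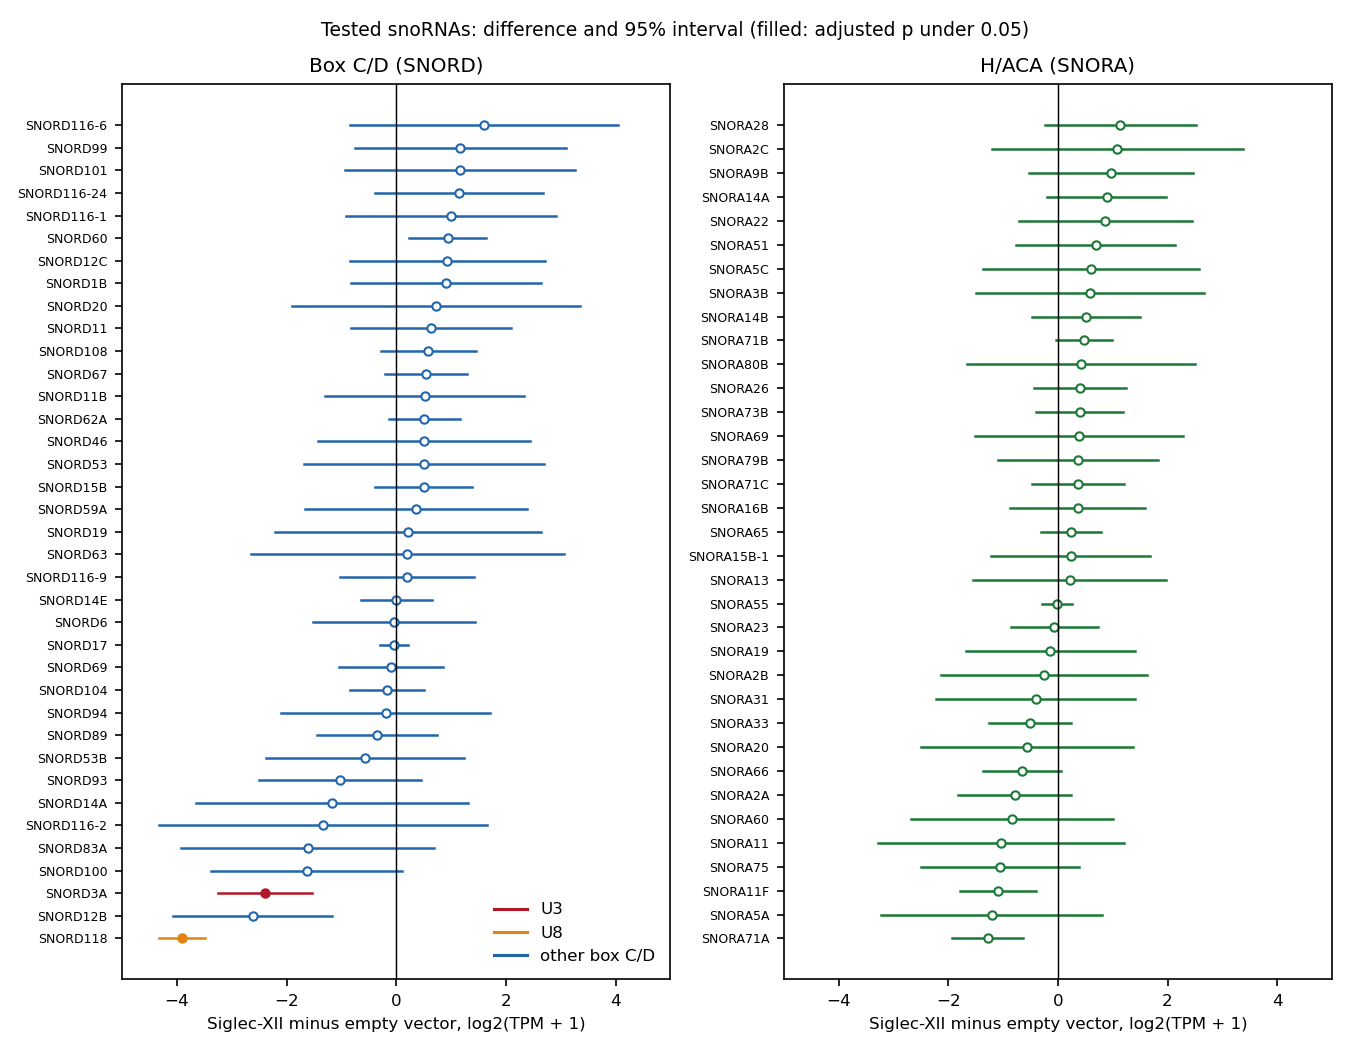
Difference in level, Siglec-XII minus empty vector on log2(TPM + 1), with its 95% interval for the 72 tested snoRNAs, in 2 panels by class, filled where the limma adjusted p is under 0.05. Only SNORD3A (-2.40) and SNORD118 are filled, and most other intervals span more than 1 log2 unit to either side. The narrow SNORD118 interval rests on Siglec-XII values all listed at 0, so its plotted position is not a measured fold change.

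Most tested snoRNAs lie within longer genes, and the hosts were measured far more tightly. Of the 72, 68 lay in 51 host genes on the same strand, 46 of them in an intron and 22 overlapping an exon of some transcript of the host. Host here means the longer gene around the snoRNA, so TMEM107 is counted for SNORD118, which has its own promoter. The median SE of a fold change was 0.07 for the 51 hosts and 0.66 for the 68 snoRNAs. The fold changes of the hosts ran from -0.50 to 0.20, with a median of -0.04, and 2 of the 51 had an adjusted p under 0.05 (0.648% of all entries). These were ZFAS1 and EPB41L4A-AS1, the noncoding host of SNORA13, which fell by 0.50 (limma adjusted p = 0.00418), while SNORA13 differed by 0.22 (limma adjusted p = 0.915).

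The fold changes of snoRNAs from 1 host were spread, in RPS12 and KANSL2 within errors that also allow a shared value. RPS12, which encodes a ribosomal protein, holds SNORD100 (-1.64), SNORD101 (1.16) and SNORA33 (-0.51), and RPS12 differed by -0.15 (limma adjusted p = 0.356). KANSL2 holds SNORA2A (-0.79), SNORA2B (-0.25) and SNORA2C (1.09), and KANSL2 differed by 0.06. None of these 6 snoRNAs had an adjusted p under 0.05, and their order is not a measured difference. There were 10 hosts with at least 2 tested snoRNAs.

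The imprinted C/D clusters, whose members occur in many near-identical copies, differed in whether they were seen at all. All 9 SNORD113, all 30 SNORD114 and all 48 SNORD115 entries were listed at 0 in every library. The SNORD113 and SNORD114 copies belong to the imprinted region of chromosome 14, and SNORD115, like SNORD116, to that of chromosome 15. Of 30 SNORD116 entries, 18 were above 0 somewhere and 5 distinct ones were tested. Summed over distinct SNORD116 entries, TPM was 33.0, 26.5, 54.9 and 33.2 with the empty vector and 59.4, 66.9, 46.5 and 62.6 with Siglec-XII. The mean was 36.9 ± 12.4 against 58.9 ± 8.79 (SD, n = 4), and empty vector replicate 3 lay above the lowest Siglec-XII library. SNHG14, the transcript from which SNORD116 and SNORD108 are cut, differed by 0.18 on the log2 scale (limma adjusted p = 0.323).

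C/D snoRNAs that guide methylation of the spliceosomal U6 RNA were sparse. Of 6 listed, SNORD67 and SNORD94 were tested and neither passed. SNORD67, within an intron of CKAP5, was 3.30, 3.91, 3.05 and 4.86 with the empty vector and 4.41, 4.16, 4.46 and 4.24 with Siglec-XII (difference 0.54, 95% interval -0.21 to 1.28). SNORD94 was at 0 in 1 empty vector and 2 Siglec-XII libraries (difference -0.19, 95% interval -2.09 to 1.71). SNORD9 was above 0 in 3 libraries, SNORD7 in 2, both with Siglec-XII, and SNORD8 and SNORD10 were listed at 0 throughout.

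The proteins of the particles were abundant, and none passed the test. Of 26 tested entries for core, U3-particle and assembly proteins, 14 were higher and 12 lower, between -0.14 and 0.17. In these counts FBL, ZNHIT3 and RUVBL1 each stand for more than 1 entry, with identical values for FBL and ZNHIT3. The lowest adjusted p was 0.165 (0.648% of all entries passed, limma), and 1 entry had an unadjusted p under 0.05 (limma, 16.5% of all entries). That was GAR1, an H/ACA core protein, at 6.80 ± 0.03 and 6.96 ± 0.09 (SD, n = 4, difference 0.17). Fibrillarin (FBL) was 7.27 ± 0.07 with the empty vector and differed by 0.06 (SE 0.06), and dyskerin (DKC1) was 7.75 ± 0.17 and differed by 0.01 (SE 0.09). RRP9, the protein that binds U3, was 5.27 to 5.50 with the empty vector and 5.32 to 5.55 with Siglec-XII (difference 0.09, SE 0.07, limma adjusted p = 0.557). TGS1, which gives U3, U8 and U13 their trimethylguanosine cap, differed by 0.06 (SE 0.06).

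**Figure D4:**
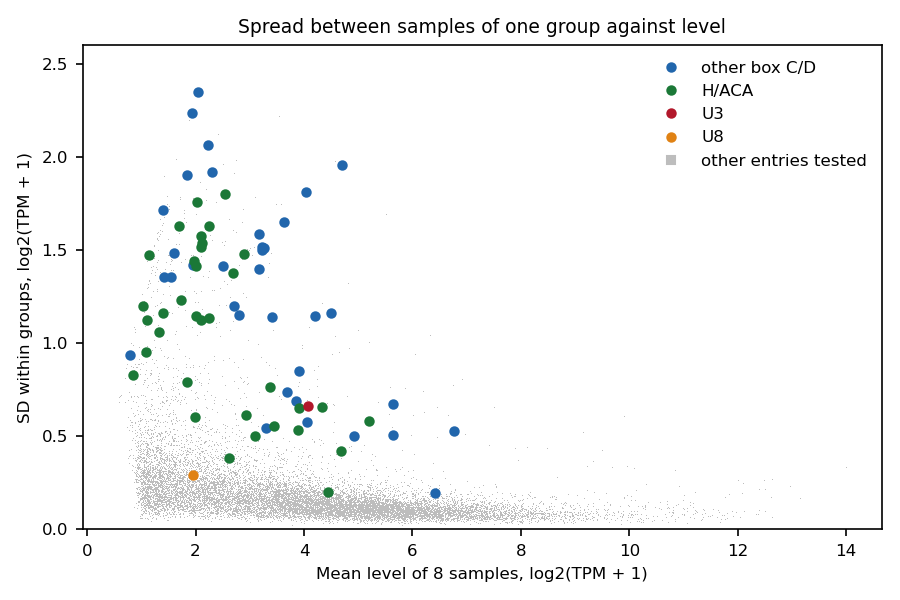
SD of replicate samples within groups (vertical, pooled over both groups) against mean level (horizontal) on log2(TPM + 1), for the 72 tested snoRNAs (coloured) and all other tested entries (grey). Nearly all snoRNAs lie above the grey band at their level, SNORD17 and SNORA55 lie lowest among those above 4, and U8, with all 4 Siglec-XII libraries at 0, lies low.

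The spread between samples of a group set what could be seen. The median SD within groups was 1.36 for the tested C/D snoRNAs, 1.12 for the H/ACA snoRNAs and 0.14 for all tested entries. It was 0.17 for the 4412 other entries whose mean level lay between 1.96 and 3.81, the interquartile range of the 70 snoRNAs. Half-widths of the 95% intervals had medians of 1.74 and 1.45 log2 units in the C/D and H/ACA classes, against 0.23 for all entries. In only 7 of the 70 snoRNAs did the interval lie between -1 and 1, against 94.5% of all entries, so for most of these snoRNAs a doubling or halving was not detectable here.

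The values themselves moved in steps. Within a library, short RNAs of the same annotated length often had the same TPM to within 0.1%, and the lowest such recurring value could be found for 169 pairs of library and length (45 lengths from 64 to 198 bases). It ranged from 0.821 to 35.4 TPM, with a median of 3.81, and exceeded 1 TPM in 168 of the 169 pairs, so the filter at 1 TPM lay below it. Of the 295 snoRNA values above 0 at these lengths (U3 and U8 aside), 134 equalled that lowest value and 77.6% were at most 3 times it. The recurring value can be that of the snoRNAs themselves, so the number at 1 time is partly set by its definition. Among the 134 values above it and up to 10 times it, 111 (82.8%) were whole multiples to within 0.05. For the tested snoRNAs the median value was 2 times the recurring value. The number of reads behind a step is not known from TPM.

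**Figure D5:**
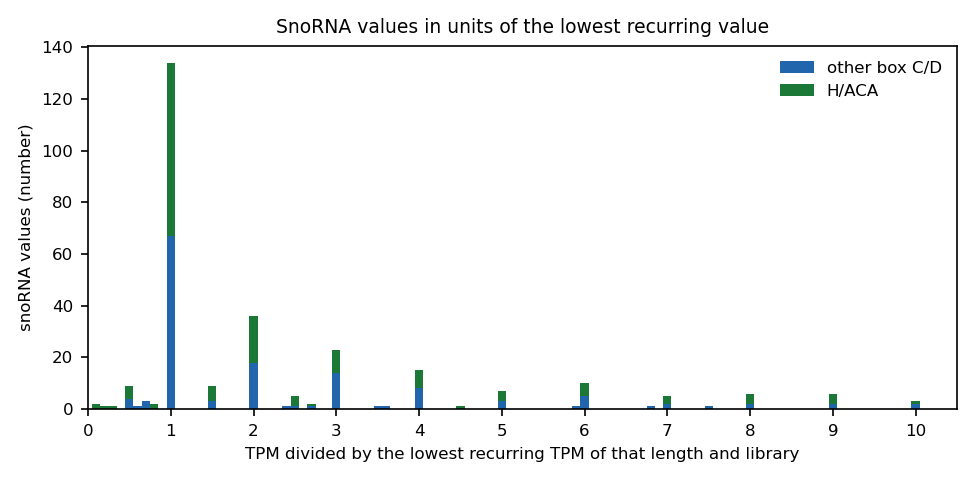
Number of C/D and H/ACA snoRNA values (vertical) by their TPM divided by the lowest recurring TPM for the same length and library (horizontal, bins of 0.1). The 134 values at 1 form the tallest bar, and the other bars stand mostly at whole numbers.

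The labels of the cells and of the groups were checked in the same table, and the intestinal markers went against the colorectal label in part. On the log2 scale SIGLEC12 was 0.11 ± 0.05 in control and 10.7 ± 0.06 in Siglec-XII libraries (SD, n = 4). All 5 epithelial markers were expressed, with summed levels of 8257 to 9230 TPM with the empty vector and 9840 to 10220 TPM with Siglec-XII, and none had an adjusted p under 0.05 (limma), although all 5 were higher and 4 had an unadjusted p under 0.05 (16.5% of all entries). Of 8 intestinal markers, the transcription factors CDX1 and CDX2 passed the filter, both higher at an unadjusted p under 0.05 and neither at an adjusted one, whereas VIL1, LGALS4, GPA33, HNF4A and CDH17 had group means under 1 on the log2 scale and KRT20 was listed at 0 in every library. Defining genes of enterocytes were thus absent or near 0 in both groups. Their part in the snoRNA values was not tested.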

How the data were processed

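RNA-seq was analysed from 8 Caco-2 samples, 4 with empty vector and 4 with Siglec-XII. The authors quantified reads with kallisto (version 0.45.0 in the submitters' processing notes) against hg19 and deposited 1 gene table as log2 of TPM plus 1. The annotation release is not given in the sources used here. The labels give an approximate read depth, but each column sums to 1e+06 TPM, so the reads behind a value are unknown and no counting interval could be given.

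The deposited log2 values were fitted by limma 3.58.1 (R 4.3.3, eBayes with trend) over the 15590 entries with at least 1 TPM in at least 4 samples, with Benjamini-Hochberg adjustment. For the summed U3 and U8 levels all 70 labellings were enumerated in an exact permutation test (two-sided). On simulated data with 200 changed entries of 15590, 159 were recovered at a log2 change of 1 (7 false calls) and 194 at 2 (14 false calls); this is over all entries, not the more variable snoRNAs. Positions, hosts and sequences came from GENCODE v44 on GRCh37, which held 370 of the 465 member transcripts, and sequences were aligned with Biopython 1.88. Whether these models match those of the authors' index is not known. Named snoRNAs were all U3 and U8 entries, members of the role lists, those with an adjusted p under 0.05, the 5 highest levels and the 5 highest and 5 lowest fold changes per class. The members and lists were chosen with earlier results of these data known. Alternatives were the pseudocount, the filter, 3 scalings, the variance trend, identical entries once, the replicate block and each sample left out.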

Additional observations from a re-analysis of the deposited data

Results flagged for a closer look

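In 9 of 73 groups of 4 samples looked at, 1 sample lay far from the other 3, by Dixon's ratio of gap to range above its 95% critical value. Chance flags about 1 in 20 groups of normally distributed values that were not chosen on the data. Many of these groups held values at 0 or were named for extreme fold changes, so 9 of 73 is not set against that rate. SNORD17 was 6.68 in empty vector replicate 3 and 6.36 to 6.37 in the other 3. The C/D share of TPM was 0.0934% in Siglec-XII replicate 1 and 0.0671 to 0.0704% in the other 3. A single sample was listed at 0 for SNORD14A in Siglec-XII replicate 4 (the others 5.14 to 5.81), for SNORD116-6 in Siglec-XII replicate 1 (3.81 to 4.47) and for SNORA9B in Siglec-XII replicate 4 (2.33 to 2.71). A single sample was above 0, with the other 3 listed at 0, for SNORA28 in empty vector replicate 1 (2.99), SNORA14A in empty vector replicate 1 (1.58), SNORD116-2 in Siglec-XII replicate 1 (5.47) and SNORD100 in Siglec-XII replicate 3 (2.37). All levels are log2(TPM + 1).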

How the results depend on the processing

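SNORD118 kept an adjusted p of 4.54e-06 to 0.000451 in the 13 alternatives in which it was tested, and in the 4 that leave out an empty vector sample it was not tested. It passed the filter only through the empty vector samples, so these p-values are no independent support. SNORD3A was below 0.05 in 10 of 17 alternatives (adjusted p 0.00347 to 0.128). The number of C/D snoRNAs with an adjusted p under 0.05 stayed at 0 in every alternative except that without Siglec-XII replicate 4, and that of H/ACA snoRNAs in every one except those that leave out Siglec-XII replicate 1 or empty vector replicate 1, so both counts ranged from 0 to 1 when a sample was left out. The H/ACA call without empty vector replicate 1 was SNORA28. It then passed the filter only through the Siglec-XII libraries, so that call is no support for a difference. Over all entries the count of 101 was 51 with no filter, 54 without the trend, 47 with identical entries once, and 40 to 154 when a sample was left out. The differences in the class shares of TPM stayed within 1 SD of the values reported, between -0.00338 and 0.00970 percentage points for C/D and between -0.00486 and -5.03e-05 for H/ACA.

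The replicate numbers did not pair the samples (same-numbered deviations correlated at 0.04, 0.03, -0.07 and 0.06), and with the replicate block the summed U3 difference of -2.34 and U8 each had an exact sign-flip p = 0.125, the smallest that 4 pairs allow, while the limma fit with the replicate block called SNORD3A (adjusted p = 0.00347) and SNORD118 and no other snoRNA. Fold changes near 0 changed sign in snoRNAs that passed nowhere. SNORD14E was -0.0744 with quantile normalization, -0.0704 with equal upper quartiles and -0.0443 with mitochondrial and the 100 most abundant entries left out. With a sample left out, the fold change ran from -0.21 to 0.21 for SNORD14E, from -0.0921 to 0.0656 for SNORA55, from -0.76 to 0.31 for SNORD94, from -0.11 to 0.0613 for SNORD17, from -0.41 to 0.0819 for SNORD104 and from -1.74 to 0.20 for SNORD14A.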
